A study of Mus musculus with 12 samples.

Results

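Hearts in which *Hira* was deleted from the *Mesp1Cre* lineage were compared with control hearts at embryonic day (E) 12.5. The comparison takes 6 of the 12 RNA-seq libraries of the series, the 3 labelled E12.5 Cre control and the 3 labelled E12.5 Mutant, and the other 6 libraries are the same genotypes at E11.5. Controls were *Mesp1Cre*;*Hira*+/fl embryos and mutants were *Mesp1Cre*;*Hira*-/fl embryos, all on a CD1 background. Both groups therefore carried the Cre driver and 1 floxed *Hira* allele, and they differed in the other allele, which was wild type in controls and a constitutive null in mutants. *Mesp1Cre* recombines in the earliest mesodermal progenitors of the heart, whose descendants include myocardium, endocardium and epicardium, whereas cells that reach the heart from other lineages kept the floxed allele. Those cells were still heterozygous for the null allele in mutants. Whole hearts were frozen during genotyping, so each library mixes all the cell types of the organ and of the blood within it. The sources do not say whether a library holds 1 heart or a pool, and a library is called a heart here. In such bulk libraries, fewer cells of a type and less RNA per cell cannot be told apart.

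HIRA is the core of a histone chaperone complex, with UBN1 and CABIN1 and with ASF1A as its partner, that places the histone variant H3.3 into chromatin outside of DNA replication. H3.3 marks transcribed genes and regulatory elements, and is encoded by *H3f3a* and *H3f3b*. At mid-gestation the mouse heart septates and the endocardial cushions are remodelled towards valves. At this time primitive red cells still fill its chambers and macrophages settle in its wall.

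Between 14676369 and 17483982 reads were counted on genes per E12.5 library. The first principal component held 44.7% of the variance and separated the genotypes. The second (17.7%) set mutant replicate 3 at 20.79 against -12.68 and -12.14 for the other 2 mutant hearts, and genes of stratified epithelium, named after their values were seen, were high in this library. *Krt5*, a keratin of basal epithelial cells, stood at 0, 0.595 and 28.4 CPM (read counts scaled to a common library size) in mutant replicates 1 to 3 and at 0.227 to 0.62 CPM in controls. *Gabrp*, a GABA receptor subunit of epithelia, was at 16.9 CPM in mutant replicate 3 and at 0.284 CPM or less in each of the other 5 libraries. Liver genes were high in mutant replicate 1, with *Alb* at 18.8 CPM against 0.908 or less elsewhere and *Afp* at 27.6. Control replicate 3 stood apart from the other controls in atrial and muscle genes, with *Myl7*, the atrial myosin light chain, at 1693 CPM against 900 and 1012. *Krt5*, *Gabrp*, *Myl7*, *Alb* and *Afp* did not pass the test described next. One library of each genotype was classed as male at E12.5, control replicate 3 and mutant replicate 1. A fit without either of them therefore also lacks the only male of that group. At E11.5 all 3 control libraries and 1 of 3 mutant libraries were classed as male, so that sex and genotype overlap in part there.

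The hearts carried the defining genes of their label. *Myh7*, the main myosin heavy chain of the embryonic ventricle, stood at 7470, 6785 and 5303 CPM in controls and at 5497, 5587 and 7231 CPM in mutants, and the groups overlapped. *Hira* itself was at 78.5, 87 and 61.3 CPM in controls and at 81, 72.4 and 71.5 CPM in mutants. The fitted log2 fold change of *Hira*, mutant over control, was -0.01 (SE 0.12, edgeR adjusted p = 0.961). The counts cover the whole gene and the deletion removes 1 exon, so this level does not check the genotypes. Of 8 tested genes that encode H3.3, the HIRA complex or DAXX, another chaperone of H3.3, none passed both thresholds. *H3f3b* was higher in every mutant heart, at 427, 433 and 423 CPM against 296, 307 and 322 CPM, a log2 difference of 0.47 (SE 0.07, edgeR adjusted p = 0.00475) that is below the fold threshold. *H3f3a* was 0.29 higher on the log2 scale (adjusted p = 0.0634), and *Ubn1*, *Ubn2*, *Cabin1*, *Asf1a* and *Daxx* lay between -0.23 and 0.32.

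Genes with a mean of at least 0.5 RPKM (reads per kilobase of gene, scaled to library size) were tested, 12256 in all. A gene was called upregulated or downregulated at the limits of the study, which were a Benjamini-Hochberg adjusted p up to 0.05 together with a 1.5-fold difference or more. By this rule 371 genes were changed, or 3.03% of those tested. Upregulated genes numbered 201 (1.64%) and downregulated genes 170 (1.39%). Without the fold limit, 628 genes had an adjusted p up to 0.05. Groups did not overlap for 3210 genes (26.2%), and for all 371 changed genes. The changes were mostly modest, with a median log2 fold change of 0.96 among upregulated and -0.93 among downregulated genes. At least a 4-fold change was fitted for 13 upregulated and 4 downregulated genes. About as many of each kind were weakly expressed, 106 of the upregulated and 104 of the downregulated genes having a mean under 5 RPKM. The call held without each of the 6 libraries in turn for 66 upregulated and 59 downregulated genes. An exact permutation test of 3 against 3 libraries cannot go below p = 0.1, so the calls rest on the spread modelled across genes.

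**Figure D1:**
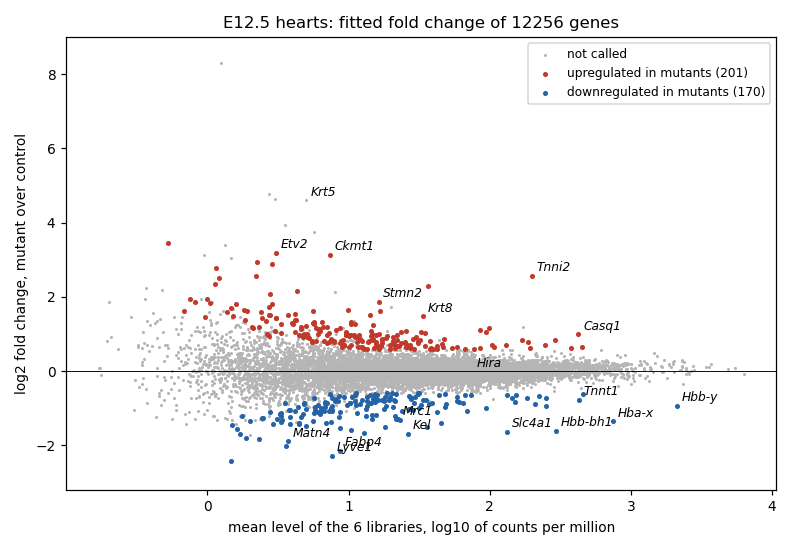
Log2 fold change of mutant over control hearts (vertical axis) against the mean level of the 6 libraries in log10 CPM (horizontal axis), 1 point per gene tested at E12.5. The 201 upregulated genes (red) and 170 downregulated genes (blue) spread over the range of levels, with *Tnni2* the largest rise among well expressed genes, globins the most abundant of the falls, and *Krt5* a high value that was not called (grey).

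The changed muscle genes were mostly those of skeletal fibres. *Tnni2* (chr7:142441808-142444410, mm10, + strand), the troponin I of fast skeletal fibres, stood at 54.3, 48.4 and 68.2 CPM in controls and at 370, 340 and 307 CPM in mutants. The mutant hearts were tightly grouped far above the controls, a 5.96-fold rise (log2 fold change 2.57, SE 0.12, edgeR adjusted p = 3.17e-06). *Tnnt1*, the slow skeletal troponin T, went the other way, from 411, 558 and 640 CPM to 335, 309 and 299 CPM (log2 fold change -0.77, SE 0.13, adjusted p = 0.0104). *Tnni2* and *Tnnt1* were the 2 called genes among 8 troponins. With no filter on low values, a replicate block, a sex term or control replicate 3 left out, 2 troponins were called higher. The fit of all 12 libraries called 1 higher and 0 lower, so *Tnnt1* was not called there. *Casq1*, the calcium-binding protein of the skeletal sarcoplasmic reticulum, was at 214, 228 and 410 CPM in controls and at 506, 470 and 718 CPM in mutants (log2 fold change 0.99, SE 0.23, adjusted p = 0.0315). *Acta1*, skeletal alpha-actin, was at 161, 177 and 285 CPM against 293, 374 and 458 CPM (log2 fold change 0.85, SE 0.20, adjusted p = 0.0360). In both genes control replicate 3 came close to the lowest mutant. Both calls were lost without control replicate 1 or 2 and without mutant replicate 3. That of *Casq1* was also lost without mutant replicate 1 and that of *Acta1* without mutant replicate 2, with adjusted p between 0.0648 and 0.141 in these fits.

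Of 13 fast skeletal fibre genes tested, 3 were upregulated and none downregulated, with a median log2 fold change of 0.85 against about 0 over all genes. DESeq2 called 1 of the 13, a fit with a sex term 5, a fit with the replicate number as a block 5, and the fits without 1 library 1 to 5. Their summed level was 584.1 to 1125 CPM in controls and 1519 to 1925 CPM in mutants. The top of the control range was replicate 3. There *Myl1*, the fast essential light chain, stood at 205 CPM against 46.7 and 62 CPM in the other controls. Mutants stood at 204, 211 and 300 CPM (log2 fold change 1.19, edgeR adjusted p = 0.133). *Tnnt3*, the fast troponin T, followed the same pattern, at 2.92, 3.69 and 21.1 CPM in controls and 46.4, 16.5 and 29 CPM in mutants (adjusted p = 0.118). The part of the atrial genes in these values was not tested. Among the factors that specify skeletal muscle only *Myog* was expressed enough to test, and it stood at 0.558 to 0.681 CPM in controls and 0.816 to 2.32 CPM in mutants (adjusted p = 0.129). Of 26 cardiac sarcomere genes 1 was called, a share near the 3.03% called over all genes tested, and their median log2 fold change was 0.07. Their summed level was 39936 to 40883 CPM in controls and 38470 to 46630 CPM in mutants. The called gene was *Myom2*, an M-band protein of adult fast and cardiac muscle, at 2.38 to 3.35 CPM in controls and 5.71 to 7.71 CPM in mutants (log2 fold change 1.19, adjusted p = 0.0139). *Myom2* was not called without control replicate 1 or 2 (adjusted p = 0.0574 and 0.0562). *Rpl3l*, a ribosomal protein largely restricted to striated muscle, rose 3.12-fold from 0.744 to 0.965 CPM in controls to 2.32 to 3.13 CPM in mutants (adjusted p = 0.0110), and was the 1 gene called of 78 cytosolic ribosomal protein genes.

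Of 26 genes of fatty acid and creatine metabolism, 2 rose and 1 fell (*Fabp4*), with a median log2 fold change of -0.05. *Ckmt1* (chr2:121357714-121363737), the mitochondrial creatine kinase of brain and epithelia, was at 2.32, 1.42 and 0.744 CPM in controls and at 13.8, 10.8 and 14.9 CPM in mutants. This was an 8.83-fold rise (log2 fold change 3.14, SE 0.30, edgeR adjusted p = 9.52e-04). Its sarcomeric relative *Ckmt2* rose 2.30-fold (adjusted p = 0.0125), a call that was lost without control replicate 1 or mutant replicate 1 (adjusted p = 0.0568 and 0.0501). *Atp1b1*, a beta subunit of the sodium pump, fell by 0.46 on the log2 scale (adjusted p = 0.0105), which is below the fold limit.

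**Figure D2:**
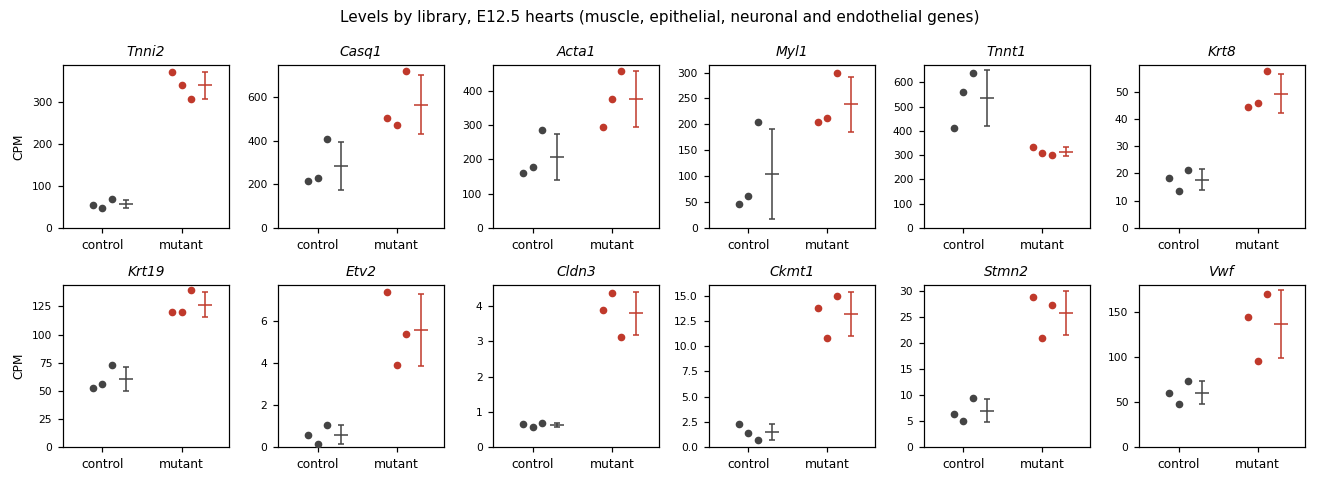
Level of 12 genes in CPM (vertical axis of each panel, from 0) in the 3 control (grey) and 3 mutant (red) hearts at E12.5, replicates 1 to 3 from left to right, with the mean and SD of each group beside the points. *Tnni2*, *Cldn3*, *Krt8* and *Ckmt1* separate widely, while in *Casq1*, *Acta1* and *Myl1* control replicate 3 lies near the mutants.

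Simple-epithelial keratins were upregulated. *Krt8* (chr15:101996698-102004482), which pairs with *Krt18* in simple epithelia and the embryonic myocardium, was at 18.2, 13.6 and 21.3 CPM in controls and at 44.5, 45.7 and 57.5 CPM in mutants (log2 fold change 1.48, SE 0.15, edgeR adjusted p = 0.00127). *Krt19* rose from 53, 56.3 and 73 CPM to 120, 120 and 140 CPM (log2 fold change 1.06, SE 0.12, adjusted p = 0.00127), and *Krt18* rose 1.76-fold (adjusted p = 0.0141). *Krt18* was not called without control replicate 1 or mutant replicate 1 (adjusted p = 0.0659 and 0.0568). These keratins and *Msln*, the mesothelial surface protein mesothelin, were the 4 upregulated genes among 17 of the epicardium and mesothelium, of which none was downregulated. *Msln* was at 21, 25.1 and 22.6 CPM in controls and 58.7, 50.8 and 31.2 CPM in mutants (adjusted p = 0.0128), and was not called without control replicate 1 (adjusted p = 0.0636). The factors that define the epicardium did not move with them. *Wt1*, *Tbx18* and *Tcf21*, chosen after their values were seen, had log2 fold changes of -0.05, 0.14 and 0.01, and the list median was 0.14.

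Of 20 listed genes of endoderm and other epithelium, 9 passed the filter on level. Of these 9, 5 were upregulated, with a median log2 fold change of 2.52. A gene barely detected in controls passes mainly through the mutants, so the filter favours rises here. With no filter on low values, 19 were tested, 8 were called higher and the median was 1.97. *Cldn3*, a tight junction claudin, was at 0.664, 0.568 and 0.682 CPM in controls and at 3.88, 4.34 and 3.12 CPM in mutants (log2 fold change 2.56, SE 0.29, edgeR adjusted p = 0.00127). *Wfdc2*, a secreted protease inhibitor of airway and other epithelia, was at 0.332 to 1.12 CPM in controls and 3.79 to 6.05 CPM in mutants, a 7.37-fold rise (adjusted p = 0.00265). These genes were higher in all 3 mutant hearts. *Krt14*, the partner of *Krt5*, was highest in mutant replicate 3, at 12 CPM against 3.74 and 5.65 CPM in the other mutants and 0.797 to 2.11 CPM in controls, and lost its call without control replicate 1 or 2 (adjusted p = 0.0845 and 0.0560). *Cldn4* and *Epcam*, also highest in mutant replicate 3 at 3.85 and 5.18 CPM, were not called. Without that library, 5 genes of the list were expressed enough to test, 4 were called and the median was 1.56. The part of its epithelial signal in the other values was not tested. Tight junction genes gave 4 rises and 1 fall (*Cldn5*) among 18, the rises being *Cldn3*, *F11r*, *Ocln* and *Cgn*. Without mutant replicate 3 the list held 1 rise. Among the fits that left out 1 library, *Cgn* was called only without control replicate 3 (edgeR adjusted p up to 0.121 in the others). *F11r*, which encodes the junctional adhesion molecule A, stood at 67.5, 67.5 and 67.9 CPM in controls and 101, 96.2 and 114 CPM in mutants (log2 fold change 0.62, adjusted p = 0.00265). Without mutant replicate 3 its log2 fold change of 0.54 was under the fold limit. *Ocln*, the tight junction protein occludin, rose 2.84-fold (adjusted p = 0.0186) and lost its call without control replicate 2, mutant replicate 2 or mutant replicate 3 (adjusted p up to 0.0698).

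Several genes of neurons were higher in mutant hearts. *Stmn2*, a microtubule regulator of growing neurites, was at 6.51, 5.11 and 9.49 CPM in controls and at 28.9, 20.9 and 27.4 CPM in mutants (log2 fold change 1.87, SE 0.20, edgeR adjusted p = 0.00127). *Prph* (chr15:99055174-99058978), the intermediate filament of peripheral neurons, was at 0.797, 0.511 and 0.248 CPM against 4.69, 3.15 and 4.05 CPM, a rise of 2.93 on the log2 scale (adjusted p = 0.00245). *Tubb3*, the neuronal beta-tubulin, rose 2.24-fold (adjusted p = 0.00689). *Sncb*, beta-synuclein, rose 6.86-fold from at most 0.62 CPM (adjusted p = 0.0159), and was not called without control replicate 1 or 2 or mutant replicate 1 (adjusted p from 0.0586 to 0.0618). These were the 4 called among 13 neuronal genes, none of which was called lower, and the median log2 fold change was 0.45. Of 24 listed genes these 13 passed the filter on level, which again favours genes barely detected in controls, such as *Prph* and *Sncb*. With no filter on low values, 24 were tested, 4 were called higher and the median was 0.28. Other neuronal genes, named after their values were seen, were not called. *Phox2a*, the regulator of autonomic neurons, was at -1.28 on the log2 scale (adjusted p = 0.102) and *Elavl4*, a neuronal RNA-binding protein, one of -0.25. None of 4 neural crest and Schwann cell genes was called, with *Ednrb* at 0.18 and *Erbb3* at 0.03 on the log2 scale.

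In the endothelium, the largest rise was that of *Etv2* (chr7:30633616-30635852), the transcription factor that starts the endothelial and blood programme and is normally expressed in early embryos. It had 9, 3 and 17 reads in the control libraries and 108, 66 and 81 in the mutant libraries, which are 0.598, 0.170 and 1.05 CPM against 7.35, 3.93 and 5.38 CPM. The groups were well apart, with a 9.14-fold difference (log2 fold change 3.19, SE 0.45, edgeR adjusted p = 0.00422) from a level close to the detection limit. *Vwf*, the clotting factor of mature endothelium, rose 2.26-fold from 60.5, 47.7 and 73.3 CPM to 144, 95.9 and 169 CPM (adjusted p = 0.00859). *Aplnr*, the apelin receptor of venous and sprouting endothelium, fell 2.91-fold from 10.7, 17 and 10.9 CPM to 6.12, 3.87 and 3.32 CPM (adjusted p = 0.00859). *Cldn5* and *Robo4* were also downregulated, and both calls depended on single libraries. That of *Cldn5* (log2 fold change -1.06, adjusted p = 0.0339) held only without mutant replicate 1, with adjusted p up to 0.127 in the other such fits. That of *Robo4* (-0.92, adjusted p = 0.0380) held only without control replicate 3 or mutant replicate 2, with adjusted p up to 0.143 otherwise. The general endothelial genes *Pecam1*, *Cdh5* and *Tek*, named after their values were seen, had log2 fold changes of 0.24, 0.05 and 0.01 and were not called. *Egfl7*, another gene of the list, was higher in every mutant heart and just under the fold limit. Over the list of 26, 19 had a positive and 7 a negative log2 fold change. Called genes were 2 rises and 3 falls, and the median was 0.10. *Fabp4*, a fatty acid carrier of microvascular endothelium, fell 4.44-fold from 8.9, 23 and 10.6 CPM to 4.01, 4.34 and 1.20 CPM (adjusted p = 0.0180), and was not called without control replicate 2 (adjusted p = 0.0591).

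Of the lymphatic genes that changed, most were lower. *Lyve1* (chr7:110850607-110863239), the hyaluronan receptor of lymphatic endothelium and of some tissue macrophages, fell from 13.2, 14.7 and 10.2 CPM to 2.65, 2.20 and 2.92 CPM. It was the largest fall among called genes with a mean of at least 1 RPKM (log2 fold change -2.29, SE 0.20, edgeR adjusted p = 6.82e-04). *Mrc1*, a mannose receptor that both cell types also share, and *Reln*, the reelin of lymphatic endothelium, fell 2.47-fold (adjusted p = 0.00265) and 1.90-fold (adjusted p = 0.00583). *Prox1*, the regulator of lymphatic identity that cardiomyocytes express too, fell by 0.44 on the log2 scale (adjusted p = 0.0268), which is below the fold limit, as did *Nrp2* (by 0.54, adjusted p = 0.0203). Of the 13 genes tested 3 fell and 1 rose, *Foxc2* (1.77-fold, adjusted p = 0.0128, not called without control replicate 1 or mutant replicate 1). The list median was -0.37 and its summed level was 513.1 to 518.1 CPM in controls and 392.2 to 481.9 CPM in mutants.

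**Figure D3:**
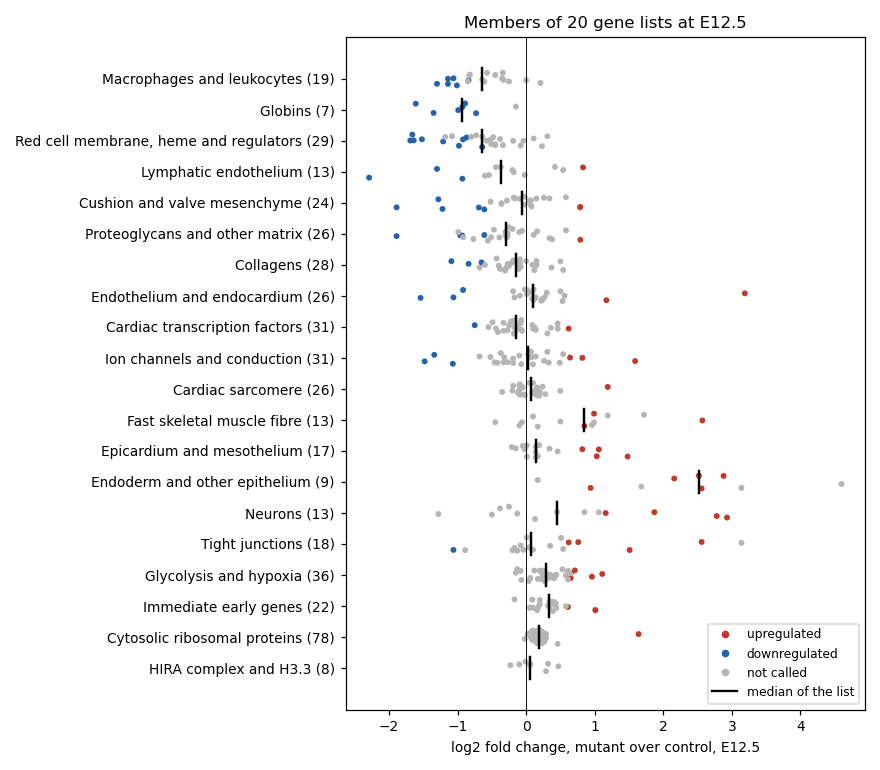
Log2 fold change (horizontal axis, mutant over control at E12.5) of the tested members of 20 gene lists, 1 point per gene, red where upregulated, blue where downregulated and grey where not called, with a black bar at the median of each list. Globin, red cell and macrophage genes lie mostly to the left, fast skeletal, epithelial and glycolytic genes mostly to the right, and cardiac sarcomere genes and transcription factors around 0.

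Macrophage genes changed in 1 direction. Of 19 tested, 6 were downregulated and none upregulated, 17 had a negative log2 fold change and the median was -0.64. *Mrc1* stood at 32.7, 28.8 and 34.1 CPM in controls and at 15.7, 13.9 and 9.04 CPM in mutants. *Lyz2*, the lysozyme of macrophages and granulocytes, stood at 47.5, 31.8 and 36.2 CPM against 16.9, 23.9 and 14.4 CPM (log2 fold change -1.06, SE 0.19, edgeR adjusted p = 0.0111). *Mrc1* and *Lyz2* kept their calls without each library. *F13a1*, a clotting factor subunit of tissue macrophages, and *Cx3cr1*, the fractalkine receptor, fell 2.20-fold and 1.79-fold. *F13a1* was not called without control replicate 1, mutant replicate 2 or mutant replicate 3 (adjusted p up to 0.0617), and *Cx3cr1* was called only without mutant replicate 1. The summed level of the list was 227.0 to 315.9 CPM in controls and 170.2 to 200.6 CPM in mutants. The list was called for 2 to 5 members when 1 library was left out, and for 1 in the fit of all 12 libraries.

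The most abundant falls were in the globins. Of 7 tested, 6 were downregulated, and their summed level was 4045 to 6500 CPM in controls and 2178 to 2930 CPM in mutants. *Hbb-y*, the embryonic beta globin, was at 2600, 2365 and 3356 CPM in controls and at 1707, 1369 and 1301 CPM in mutants (log2 fold change -0.93, SE 0.13, edgeR adjusted p = 0.00483). *Hba-x*, the embryonic alpha-type globin zeta, was at 903, 784 and 1512 CPM against 476, 394 and 387 CPM (log2 fold change -1.35, SE 0.20, adjusted p = 0.00544). *Hbb-bh1*, the other primitive beta-type globin, was at 378, 258 and 702 CPM against 150, 112 and 174 CPM (log2 fold change -1.61, SE 0.29, adjusted p = 0.0125). All 3 embryonic globins were highest in control replicate 3 and lower in each mutant than in each control. *Hba-a1*, *Hbb-b1* and *Hbb-b2*, the adult-type globins, were lower too, but each has a near-identical neighbour with which it may share reads, so their separate values are uncertain.

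Genes of the red cell membrane and of heme synthesis moved with the globins. Of 29 tested, 9 were downregulated, none was upregulated and 26 were negative, with a median log2 fold change of -0.64. Without control replicate 3, the library with the most red cell RNA, 8 were downregulated and the median was -0.32. *Slc4a1* (chr11:102348824-102366203), the band 3 anion exchanger, stood at 186, 143 and 272 CPM in controls and at 75.7, 58.2 and 58.7 CPM in mutants (log2 fold change -1.64, SE 0.20, edgeR adjusted p = 0.00189). *Kel*, the Kell blood group protein, and *Epb4.2* (also *Epb42*), which anchors band 3 to the membrane skeleton, fell 3.24-fold (adjusted p = 0.00369) and 3.17-fold (adjusted p = 0.00466). *Bpgm*, which makes the regulator of oxygen release, fell 1.97-fold (adjusted p = 0.00445). *Slc4a1*, *Kel*, *Epb4.2* and *Bpgm* kept their calls without each library. *Ctse* and *Fam46c*, which late erythroid cells also express, fell 2.98-fold and 2.87-fold (adjusted p = 0.00744 and 0.00497). The summed level of the list was 1440 to 2104 CPM in controls and 1102 to 1296 CPM in mutants.

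GATA1 is the regulator of red cell genes, and its family binds GATA motifs, here searched as AGATAA or TGATAA on either strand. The window was 300 bases, from 250 before to 50 after each gene's start, in RefSeq's promoters on GRCm38.p6. Of the 15 globin and red cell genes downregulated, 9 were matched to such a window and 7 of these (77.8%) held the motif, against 12.1% of the 9662 tested genes matched. It occurred in 26% of the 123 matched downregulated genes, which include these 9, and in 7.89% of the 152 matched upregulated genes. Of the 32851 windows of the table that were searched, 18.6% held it. That share is per window and is not comparable with the shares per gene. No share was computed for globin and red cell genes that were not called, so whether the motif goes with the falls was not tested. A second motif, GAGAGAGA, was in 0% of the 9 red cell genes, 4.07% of downregulated, 2.63% of upregulated and 3.9% of all tested genes. A match is a sequence description and shows no binding. The windows of *Kel* (chr6:41704276-41704575, - strand), *Epb42* (chr2:121036828-121037127, - strand) and *Hba-x* (chr11:32276350-32276649, + strand) are shown as examples of red cell genes whose falls held without each library and whose windows hold the motif. Capitals mark the motif or its reverse complement.
Kel: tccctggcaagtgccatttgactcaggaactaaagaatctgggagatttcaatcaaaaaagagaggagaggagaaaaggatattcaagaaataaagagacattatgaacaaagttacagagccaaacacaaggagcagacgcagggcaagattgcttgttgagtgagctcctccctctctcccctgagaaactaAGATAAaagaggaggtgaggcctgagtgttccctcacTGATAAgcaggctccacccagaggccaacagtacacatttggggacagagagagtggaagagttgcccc
Epb42: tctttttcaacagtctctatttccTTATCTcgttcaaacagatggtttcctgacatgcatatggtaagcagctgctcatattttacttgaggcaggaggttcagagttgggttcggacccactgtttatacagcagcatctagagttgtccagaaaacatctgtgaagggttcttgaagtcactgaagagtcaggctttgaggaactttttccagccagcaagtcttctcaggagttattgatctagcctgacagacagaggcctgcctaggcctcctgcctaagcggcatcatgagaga
Hba-x: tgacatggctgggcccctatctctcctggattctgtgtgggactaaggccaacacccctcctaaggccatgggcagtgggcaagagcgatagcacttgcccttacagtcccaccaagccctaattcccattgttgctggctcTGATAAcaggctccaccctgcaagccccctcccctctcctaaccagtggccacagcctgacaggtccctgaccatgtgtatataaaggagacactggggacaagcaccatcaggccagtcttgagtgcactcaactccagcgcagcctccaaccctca
*Kel* carries 2 motifs ahead of its start and the other 2 windows 1 each. The window of the upregulated *Krt8* holds AGATAA too.

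**Figure D4:**
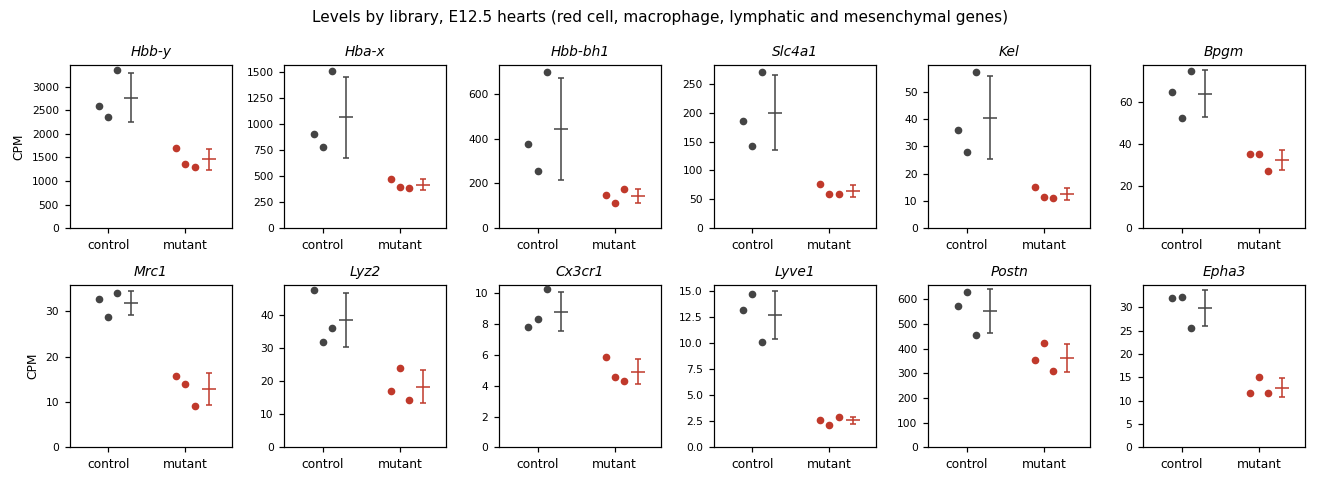
Level of 12 genes in CPM (vertical axis of each panel, from 0) in the 3 control (grey) and 3 mutant (red) hearts at E12.5, replicates 1 to 3 from left to right, with the mean and SD of each group beside the points. Every mutant heart lies below every control heart in all 12 panels, and control replicate 3 is the highest in the globin and red cell genes.

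Cushion and matrix genes gave falls and few rises. Of 24 cushion and valve genes, 5 were downregulated and 1 upregulated, with a median of -0.05. *Epha3*, an Eph receptor of cushion mesenchyme, fell from 32.1, 32.1 and 25.5 CPM to 11.6, 15.2 and 11.6 CPM (log2 fold change -1.22, SE 0.14, edgeR adjusted p = 0.00127). *Papss2*, which makes the sulphate donor for proteoglycans, fell 2.43-fold (adjusted p = 0.00235) and *Matn4*, a matrilin of cartilage-like matrix, 3.72-fold (adjusted p = 0.00663). *Postn*, the periostin of valve mesenchyme, stood at 572, 632 and 456 CPM in controls and 355, 422 and 308 CPM in mutants (log2 fold change -0.61, adjusted p = 0.0239). It was not called without control replicate 1 or 2 or mutant replicate 1 or 3. The 1 upregulated gene was *Hapln1*, the link protein that stabilizes hyaluronan and versican, at 123, 133 and 153 CPM in controls and 252, 241 and 212 CPM in mutants (log2 fold change 0.79, SE 0.10, adjusted p = 0.00222).

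Among 26 proteoglycans and other matrix genes, 4 fell and 1 rose, 20 were negative and the median was -0.29. Of the called genes *Matn4*, *Postn* and *Hapln1* are also in the cushion list, so the calls of the 2 lists are not separate. *Fmod*, the collagen-binding fibromodulin, fell by 0.96 on the log2 scale (adjusted p = 0.00344) and *Eln*, the elastin of arterial walls and valves, fell from 296, 353 and 330 CPM to 224, 152 and 137 CPM (adjusted p = 0.00859). Of 28 collagen genes, *Col9a3*, *Col2a1* and *Col14a1* were downregulated and none was upregulated. *Col9a3*, a cartilage collagen also made in valves, fell 2.13-fold (adjusted p = 0.00583) and kept its call without each library. *Col2a1* (1.80-fold, adjusted p = 0.0179) lost it without control replicate 1 or mutant replicate 1 or 2, and *Col14a1* was called only without control replicate 3. *Itga8*, an integrin subunit of mesenchyme, fell from 56.8, 51.7 and 42.9 CPM to 31.4, 28.7 and 23.7 CPM (adjusted p = 0.00561) and was the 1 gene called of 18 integrins. None of 10 smooth muscle genes was called, with *Acta2* at 0.41 (adjusted p = 0.0641) and *Myl9* at 0.18 on the log2 scale.

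The signalling and guidance lists of this paragraph each had a small number of called members. As shares these were above the 3.03% called over all genes tested, but the lists were chosen with earlier results of these data known. Over all 46 lists 98 of 977 tested members were called. No set test was run, and the shares are not read as a result about these pathways. Of 37 semaphorin, plexin, slit and netrin genes, *Robo1*, *Robo4*, *Sema7a* and *Slit2* were downregulated and none was upregulated. *Slit2*, the ligand, stood at 245, 170 and 143 CPM in controls and 115, 113 and 130 CPM in mutants (log2 fold change -0.64, adjusted p = 0.0429), and *Robo1*, its receptor, at 99, 95.5 and 74.3 CPM against 67.2, 52.5 and 51.8 CPM (-0.65, adjusted p = 0.0165). *Slit2* was called only without control replicate 3, *Sema7a* only without control replicate 3 or mutant replicate 3, and *Robo1* in all such fits except those without control replicate 1 or 2 or mutant replicate 2. In the BMP and TGF-beta list of 33, *Ltbp4*, a matrix store of TGF-beta, rose 1.54-fold (adjusted p = 0.0158) and *Bmpr1b*, a type I BMP receptor, fell 2.22-fold (adjusted p = 0.0345). *Bmpr1b* was called only without mutant replicate 2, and *Ltbp4* not without control replicate 1 or mutant replicate 1. In the Wnt list of 31, *Sost*, an antagonist that binds the LRP co-receptors, rose 3.12-fold from 2.72, 4.88 and 6.64 CPM to 18.1, 9.34 and 17.4 CPM (adjusted p = 0.0137). *Notum*, which removes the lipid from Wnt ligands, fell 2.71-fold (adjusted p = 0.0472). *Sost* was not called without control replicate 1 or mutant replicate 1. *Notum* was called only without mutant replicate 1, with edgeR adjusted p from 0.0571 to 0.159 in the other such fits. *Gas6*, the ligand of the TAM receptors, rose from 121, 142 and 99.9 CPM to 230, 203 and 218 CPM (1.79-fold, adjusted p = 0.00344). *Igfbpl1*, a binding protein of the insulin-like growth factor family, fell 2.50-fold (adjusted p = 0.00659), and the ligand *Igf2* had a log2 fold change of 0.11.

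Channels changed in both directions. *Kcnd2* (chr6:21215503-21729805) and *Kcnd3*, the alpha subunits of the transient outward potassium current, were both lower. *Kcnd2* fell 2.79-fold from 6.77, 8.01 and 7.26 CPM to 2.11, 2.26 and 3.52 CPM (edgeR adjusted p = 0.00616) and *Kcnd3* 2.09-fold (adjusted p = 0.0137, not called without control replicate 1, adjusted p = 0.0623). *Scn7a*, an atypical sodium channel of nerves and muscle, fell 2.54-fold (adjusted p = 0.00563). *Kcnj2*, the inward rectifier that sets the resting potential, rose 1.55-fold from 21.4, 19.8 and 18.6 CPM to 34.4, 30.2 and 28.2 CPM (adjusted p = 0.00906), and was under the fold limit without mutant replicate 1. The connexin *Gja4* rose from 20.5, 22.4 and 24.6 CPM to 38.7, 29.8 and 50.5 CPM (1.76-fold, adjusted p = 0.0184), and was not called without control replicate 1 or 2 or mutant replicate 1. The connexin *Gjd3* rose 3.02-fold from at most 0.806 CPM (adjusted p = 0.0203), and was called only without control replicate 3 or mutant replicate 2. Of 31 channel genes 3 thus rose and 3 fell, and without mutant replicate 1 none of the 31 was called higher. *Gja3*, a connexin outside that list, fell 2.92-fold (adjusted p = 0.0203) from at most 2.95 CPM and was called only without control replicate 3 or mutant replicate 3. Of 21 calcium-handling genes *Casq1* alone was called.

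Of 31 cardiac transcription factors, *Gata5* was upregulated and *Irx3* downregulated. *Gata5*, a zinc finger factor of the endocardium, stood at 41.4, 43.7 and 41.8 CPM in controls and 66.9, 63.1 and 64.8 CPM in mutants (log2 fold change 0.62, SE 0.08, edgeR adjusted p = 0.00235). *Irx3*, which patterns the ventricular conduction system, fell 1.69-fold (adjusted p = 0.0130), a call lost without control replicate 1 or 2 (adjusted p = 0.0592 and 0.0518). The core factors *Nkx2-5*, *Gata4* and *Tbx5* had log2 fold changes of -0.15, 0.09 and -0.17, and *Tbx3*, the repressor of working myocardium in the conduction system, one of -0.55 (adjusted p = 0.0892). In the second heart field and outflow list of 14, *Foxc2* alone rose, and in the Notch, neuregulin and trabeculation list of 23, *Npr1*, the natriuretic peptide receptor, alone fell (1.76-fold, adjusted p = 0.0108).

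Glycolytic and hypoxia-responsive genes leaned upwards. Of 36, 4 were upregulated and none downregulated, 32 had a positive log2 fold change and 22 had every mutant heart above every control heart (1661 of the 12256 genes tested did), with a median of 0.29. *Slc2a3*, a high-affinity glucose transporter, stood at 56.1, 49.2 and 56 CPM in controls and 119, 74.3 and 155 CPM in mutants (log2 fold change 1.11, SE 0.20, edgeR adjusted p = 0.0128). *Slc2a1*, the main fetal glucose transporter, was at 351, 342 and 354 CPM against 529, 419 and 693 CPM (0.65, adjusted p = 0.0258). Mutant replicate 3 was the highest for both transporters and mutant replicate 2 the lowest. *Higd1a*, a hypoxia-induced mitochondrial protein, rose 1.63-fold (adjusted p = 0.00127) and kept its call without each library. *Slc2a3* lost it without control replicate 1 (adjusted p = 0.0540), *Slc2a1* without control replicate 1 or 2 or mutant replicate 1 or 3, and *Adm*, a vasodilator peptide, without those same 4. Of 87 oxidative phosphorylation genes, *Ndufa4l2*, the hypoxia-induced subunit, alone was called (1.63-fold, adjusted p = 0.0433), and only without control replicate 3 among the fits that left out 1 library. The median of that list was 0.10, and 73 members were positive.

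Ribosomal protein genes showed a small shift without calls beyond *Rpl3l*. Of 78, 77 had a positive log2 fold change, with a median of 0.19 and a summed level of 41263 to 47673 CPM in controls and 49393 to 50615 CPM in mutants. Among 22 immediate early genes, 21 were positive (median 0.34) and *Ier3* and *Nr4a1* were called, with 2.02-fold and 1.53-fold rises. *Ier3* lost its call without control replicate 1, and *Nr4a1* without control replicate 1 or 2 or mutant replicate 1. Of 38 listed Hox genes, 5 passed the filter on level, and genes barely detected in controls pass it mainly through the mutants. With no filter on low values, 34 were tested, 3 were called higher and the median was 1.57. All 5 that passed had higher levels in every mutant than in every control heart, as did 13.6% of all genes tested, their median being 1.18. Of the 5, only *Hoxb2* (2.41-fold, edgeR adjusted p = 0.0284) and *Hoxb3* (1.92-fold, adjusted p = 0.0251) were called, from at most 3.72 CPM in controls. Both were lost without control replicate 1 or 2 or mutant replicate 1, *Hoxb2* also without mutant replicate 2 and *Hoxb3* also without mutant replicate 3. Of 20 replication-dependent histone genes *Hist1h1c* rose (1.69-fold, adjusted p = 0.0409), and was called only without mutant replicate 3. The replacement linker histone *H1f0*, chosen after its values were seen, stood at 180, 198 and 185 CPM in controls and 304, 316 and 302 CPM in mutants (log2 fold change 0.71, SE 0.07, adjusted p = 0.00107). It kept its call without each library.

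Other lists held 1 or 2 calls or none. *H2-K1* and *Bst2* rose among 14 interferon-responsive genes, and *Ddit4* among 20 targets of p53. *Ddx4*, a germ cell RNA helicase, was the 1 gene called of 7 germ line genes, at 3.92, 1.53 and 1.99 CPM in controls and 0.816, 0.297 and 0.266 CPM in mutants (edgeR adjusted p = 0.0215). It was called only without control replicate 2 or mutant replicate 1. *Bst2* was called only without control replicate 2 or mutant replicate 2, *H2-K1* not without control replicate 2 or mutant replicate 3, and *Ddit4* only without mutant replicate 2. No gene was called among 42 of the cell cycle and DNA replication, 37 chromatin modifiers, 15 other histone chaperones, 23 imprinted genes, 14 of the retinoic acid pathway and 6 of the liver. In the first of these lists *Top2a* and in the second *Dnmt1* stood at -0.05 and -0.02 on the log2 scale. Over all 46 lists, 98 of the 977 members tested were called, and 273 of the 371 changed genes are in none of them. Among these are *Akr1c13*, a hydroxysteroid dehydrogenase (4.23-fold higher, adjusted p = 0.00265), *Grb7*, an adaptor of receptor tyrosine kinases (3.34-fold higher, adjusted p = 0.0108), and *Ramp1*, the co-receptor for calcitonin gene-related peptide (1.88-fold lower, adjusted p = 0.00666). X-linked genes were tested in a separate fit that added them, and 10 of 436 were called (2.29%).

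The question of what belongs to this stage was put to the 6 hearts of the same genotypes at E11.5. There 14 of 12197 genes were called (0.115%), 6 upregulated and 8 downregulated. Of the 201 genes upregulated at E12.5, 194 were tested at E11.5, where 181 had the same sign (93.3%) and 5 were called, with a median log2 fold change of 0.68. Of the 170 downregulated genes, 159 were tested, 129 had the same sign (81.1%) and 4 were called, with a median of -0.57. Over the 12030 genes with a fit at each stage, 61% had the same sign. *Gas6* had a log2 fold change of 1.27 at E11.5 (edgeR adjusted p = 0.0249), *Itga8* -1.34 (adjusted p = 0.0249) and *Tnni2* 1.88 (adjusted p = 0.0845). No gene differed between stages at an adjusted p up to 0.05 in the interaction test, 0 of 12270 (0%), where the smallest adjusted p was 0.143 and 552 had an unadjusted p under 0.05. DESeq2 gave 41.

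Several lists did not follow this pattern, red cell genes among them. Of the 36 globin and red cell genes, 33 had a negative log2 fold change at E12.5 and 31 a positive one at E11.5, with medians of -0.69 and 0.36 and none called at E11.5. Of the 15 downregulated at E12.5, 13 were positive at E11.5, such as *Slc4a1* at 0.37 and *Kel* at 0.50. Of the 41 genes that DESeq2 gave as different between stages, 15 were from these lists. The same genes had an adjusted p of 0.217 or more in edgeR's interaction test, which called none of the 36, so the difference between stages rests on the choice of test. *Krt8*, with a log2 fold change that went from 0.29 at E11.5 to 1.48 at E12.5, was another of the 41 (edgeR adjusted p = 0.217). Macrophage genes were negative in all 19 cases at E11.5, with a median of -1.54 and 1 called, against 17 of 19 and a median of -0.64 at E12.5. The complement genes *C1qb* and *C1qc* and the macrophage scavenger receptor *Msr1*, chosen after their values were seen, were also among the 41. Their log2 fold changes were higher at E12.5 than at E11.5, by 2.42, 2.22 and 2.71 (edgeR adjusted p = 0.217, 0.275 and 0.143). Ribosomal protein genes, of which 77 of 78 were positive at E12.5, were negative in 72 of 78 at E11.5 (median -0.12), and oxidative phosphorylation genes in 60 of 87 (median -0.10). None of either list was called at E11.5. The median of epicardial and mesothelial genes was -0.65 at the earlier and 0.14 at the later stage.

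**Figure D5:**
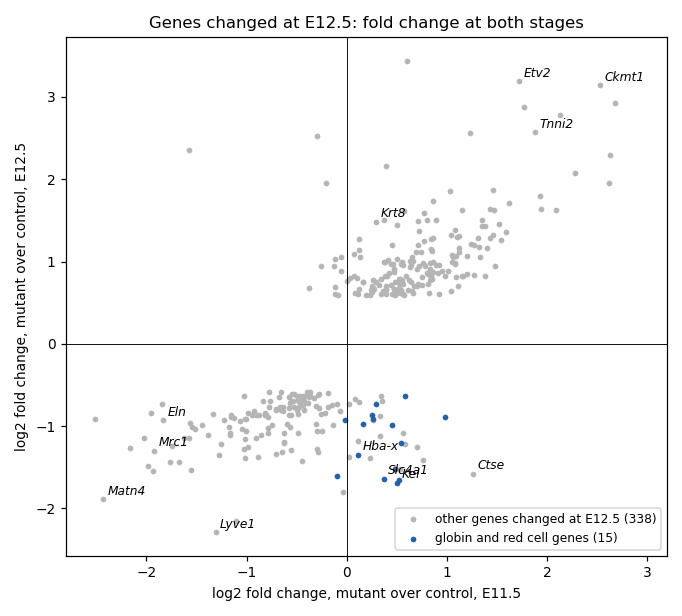
Log2 fold change of mutant over control hearts at E12.5 (vertical axis) against that at E11.5 (horizontal axis) for 353 genes, those called at the later stage and tested at the earlier one too, 1 point per gene. Most points lie at the upper right or the lower left, while 13 of the 15 globin and red cell genes (blue) lie at the lower right.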

How the data were processed

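RNA from whole embryonic hearts was made into standard Illumina libraries, 3 per genotype and stage. Reads were aligned to mm10 with Bowtie2 and normalised with DESeq per the labels. The counting program, its annotation and its use of strand are not given in the sources used here, and reads of antisense or overlapping genes may be mixed. The authors deposited values for 12 libraries under the name RPKM, which are scores, since each is a whole count times a gene length and a library factor. The authors also deposited 1 comparison per stage, with the average count of each gene and group, which can hold a fraction and was read as an expected count. Its fold changes, z scores and p-values are the authors' own and were not used.

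The average counts gave the library factors, and the counts were recovered for 17827 genes, within 7.71e-06 of a whole number. X- and Y-linked genes are outside the deposited comparisons and were tested in a separate fit that added them. edgeR 4.0.16 in R 4.3.3 (quasi-likelihood test, TMM scaling, Benjamini-Hochberg adjustment) compared mutants with controls at E12.5 over genes that averaged 0.5 RPKM or more, computed from counts and lengths. The interaction of genotype and stage was fitted over all 12 libraries. CPM used TMM-scaled library sizes. Methods were tested on simulated data. Alternatives were DESeq2 1.42.0, limma 3.58.1 on log2(RPKM + 0.5), other scalings and filters, sex or replicate number as a term, all libraries in one fit, and each library left out. Nothing says that hearts of a group came from separate litters, and p-values measure the spread between these libraries, which may be partly technical. Gene coordinates are those of GENCODE vM21 on GRCm38. Of 19142 genes compared, 10518 had the same coordinates in the deposited files. Promoters are from RefSeq on GRCm38.p6.

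Genes, lists and tests were chosen with earlier results of these data known. Named were the genes of the HIRA complex and H3.3, the 12 largest rises and 12 largest falls among called genes that averaged 1 RPKM or more and had no overlap of groups, the 10 largest changes of mean CPM, up to 4 called members of each list by lowest p (otherwise the 2 most abundant members), and genes the study names. *Wt1*, *Tbx18*, *Tcf21*, *Krt5*, *Cldn4*, *Epcam*, *Gabrp*, *Myl7*, *Myl1*, *Phox2a*, *Elavl4*, *H1f0*, *Pecam1*, *Cdh5*, *Tek*, *Cgn*, *Gja4*, *Gjd3*, *C1qb*, *C1qc*, *Msr1*, *Hbb-b1* and *Hbb-b2* are outside that rule and were chosen after their values were seen. Some genes that the rule picks are not reported here.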

Additional observations from a re-analysis of the deposited data

Results flagged for a closer look

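Globin and red cell genes were flagged because their genotype difference differed between stages by DESeq2's interaction test, in 15 of 36 genes, while edgeR's interaction test called none. The other results flagged are signals on the X chromosome, whose genes are outside the deposited comparisons. Of 436 tested X-linked genes, 10 were called at E12.5 (2.29%), against 3.03% of the genes in the main comparison. Red cell genes were again among the falls, with log2 fold changes of -1.40 for *Alas2*, the erythroid enzyme that starts heme synthesis, and -1.04 for *Xk*, the partner of the Kell protein. *Srpx* (-0.92) and *Slitrk4* (-0.96) also fell. The rises were *Nxf7* (2.18), *3830403N18Rik* (1.44), *Tceal7* (1.03), *Map3k15* (1.03), *Rhox5* (0.93) and *Plac1* (0.85). *Alas2* stood at 143, 114 and 198 CPM in controls and at 71.2, 51 and 50.5 CPM in mutants, lower in 3 of 3 mutant hearts. Each genotype had 1 male library at this stage.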

How the results depend on the processing

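The count of genes changed at E12.5 was 371 and moved by over 1.5 times with a minimum mean of 5 RPKM (161, of which 95 upregulated and 66 downregulated, from fewer genes tested), with all 12 libraries in one fit (127, 72 and 55, cause not tested) and with no fold limit (628, 347 and 281). Leaving out 1 library gave 186 to 383 changed genes, 102 to 212 upregulated and 81 to 171 downregulated. The totals furthest from 371 were 186 without control replicate 1, 221 without mutant replicate 1 and 240 without control replicate 2. DESeq2 gave 436, limma 326, median-ratio factors 360, a sex term 401 and no filter on low values 494. The difference between stages was called for 0 genes by edgeR (552 at an unadjusted p under 0.05) and for 41 by DESeq2, and the cause was not tested. The replicate number as a block gave 445 changed genes, 250 upregulated and 195 downregulated. The numbers carry no stated pairing, same-numbered libraries correlated at only 0.0443 to 0.0771, and each library correlated best with its own number, which is a hint from the data and not the design. Of the values of named genes under these alternatives, 2024 kept direction and side of the threshold, 216 lost their call, 31 gained one and 0 reversed. Counts are limited by 3 libraries per group, by weakly expressed genes, and by bulk tissue.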

Other observations

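Some of the most evenly separated genes are in none of the lists, and were chosen after their values were seen. *Wdr93*, a WD-repeat protein, stood at 8.9, 6.47 and 6.82 CPM in controls and at 20.3, 20.1 and 22.3 CPM in mutants (2.83-fold, SE of the log2 value 0.14, edgeR adjusted p = 9.52e-04). *Igdcc4*, an immunoglobulin-domain membrane protein, went from 47.9, 47.4 and 50.6 CPM to 26.5, 27.6 and 23.9 CPM (log2 fold change -0.90, SE 0.09, edgeR adjusted p = 0.00107). *Ndrg4*, which embryonic cardiomyocytes need to divide, went from 229, 240 and 212 CPM to 137, 137 and 140 CPM (edgeR adjusted p = 0.00113). *Cox20*, an assembly factor of cytochrome c oxidase, went from 73.4, 75.1 and 83.2 CPM to 40.4, 47.9 and 40.8 CPM (edgeR adjusted p = 0.00127). All 4 kept their calls without each library, and their log2 fold changes at E11.5 had the same sign, at 0.89, -1.13, -0.57 and -0.99. *Bambi*, a decoy receptor of BMP and TGF-beta, and *Egfl7*, a secreted protein of the endothelial list, were higher in every mutant heart. Both were just under the fold limit, with log2 fold changes of 0.57 (edgeR adjusted p = 0.00435) and 0.56 (edgeR adjusted p = 0.0111).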
